A study of Drosophila melanogaster with 312 samples.

Results

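The females of control population 1 (C1) were compared between late and early generations of an artificial selection experiment on night sleep in Drosophila melanogaster. The members were chosen by their labels and not by their values, with earlier results of these data known. They are the 8 female libraries of C1 from generations 10 to 13, set against the 8 female libraries of C1 from generations 0, 2, 3 and 4, which makes 16 of the 312 libraries of the series and 16 of its 156 female libraries. C1 is an unselected bottle population. It was founded, like the other 5 populations, from an outbred intercross of 10 inbred lines of the Drosophila Genetic Reference Panel, and each generation its parents were 25 males and 25 females picked at random. The other 5 populations are the second control (C2), 2 populations bred from the shortest night sleepers (S1 and S2) and 2 bred from the longest night sleepers (L1 and L2). A library is the polyA RNA of a pool of 10 whole virgin females, held for 4 days before their sleep was recorded and frozen at the same hour of the day, and each generation gave 2 pools. The flies carry no transgene and received no agent. C1 is 1 bottle, so a time in generations and anything else that changed between generations 4 and 10 in rearing, RNA preparation or sequencing cannot be told apart within it.

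An unselected control line shows how gene expression moves when nobody chooses the parents. In a small closed population, allele frequencies change by chance from parents to offspring, and a gene whose alleles differ in transcript level can then change its level in pooled flies. The whole body of a female fly is dominated by ovary, fat body, gut, muscle and head, so a level in such RNA is a sum over tissues, and fewer cells of a type cannot be told apart from less RNA per cell.

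Levels are given below as normalized counts, the raw count of a library divided by the authors' size factor for it. The C1 libraries held between 37248599 and 100280116 counts on genes in the late generations and between 34840783 and 48668250 in the early ones, so that 1 read was worth about 1 normalized count in most of them. Generation 11 was sequenced deepest. The female label held in all 16 libraries. The summed level of 18 accessory gland genes, which male flies use for seminal fluid, was 26.6 to 90.9 in late and 32.6 to 114.7 in early C1 females, against 120317 to 249620 in C1 males, while the 3 yolk protein genes summed to 174016 to 725541 in late and 268065 to 643679 in early C1 females. The first pool of generation 0 stood apart from the other 15 libraries. Its 86 genes for cytoplasmic ribosomal proteins summed to 6722558, against 3048577 to 4448683 in the others. The counts of called genes and of changes not shared are given with and without it.

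The comparison asks which transcripts of C1 females moved over about 10 generations. For each of 10008 genes, the counts of the 2 pools of a generation were summed, and the 4 late sums were compared with the 4 early sums by the quasi-likelihood F-test of edgeR, and a gene was called at an adjusted p-value (Benjamini-Hochberg, over all genes) under 0.05. At that threshold 807 genes rose and 405 fell, which is 8.06% and 4.05% of the genes tested and 12.1% in all. The changes were mostly small, with a median size of 0.68 on the log2 scale among the called genes, and 34 of them changed at least 4-fold. At an adjusted p-value under 0.001, 1 gene was called. The count of 1212 rested on single generations. It was 115 without generation 0, 396 without generation 2, 49 without generation 3, 100 without generation 11, 77 without generation 12 and 1872 without generation 13. Without the first pool of generation 0 it was 1033, and 41 of the genes were called in all 8 fits that each left out 1 generation. Those 41 genes comprise 22 rises and 19 falls, and the text leans on them where it can.

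A second fit over the sums of all 6 female populations, with a term for each generation shared by all of them, tested whether the change in C1 differed from the mean change of the other 5. It called 2124 genes, or 21.2% of those tested. Its spread was taken within the 6 populations and not between bottles. A call therefore cannot tell a change of C1 from the ordinary variation between bottles. A change was counted as not shared when it was called in both tests with the same sign and was further from 0 in C1 than in each of the other populations. This held for 381 genes (3.81% of those tested), 239 of which rose and 142 of which fell. It was counted as shared when all of the other 5 populations moved in the same direction and their mean change was called, which held for 876 genes (8.75%), 555 rises and 321 falls. The definitions overlap, and 166 genes met both because they moved everywhere and furthest in C1. The count of changes not shared was 98 without L2, 22 without generation 11, 25 without generation 3, 231 without the first pool of generation 0, and 16 when the shared generation term was left out. Without that term 873 changes were shared.

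A pair of neighbouring genes for secreted serine proteases lost nearly all of their transcript. Ser6, which encodes serine protease 6 of the trypsin family, lies on the minus strand of chromosome X at 20962605 to 20963505 (BDGP6.54). Its level ran from 0 to 32.6 in the 8 late libraries with a median of 0.216, against 424 to 1054 with a median of 740.1 in the 8 early libraries. The groups were far apart, and the highest late value came from the second pool of generation 12, with all other late libraries at 2.75 or lower. Ser6 fell by 7.63 ± 0.80 on the log2 scale (SE, n = 4 generations against 4, edgeR adjusted p = 0.00173). Without generation 12 the log2 change of Ser6 was -10.37, so its size rests on a few reads. CG1304, a predicted serine protease on the same strand at 20964527 to 20965419, ran from 0 to 60.4 with a median of 0.71 in late libraries, against 285 to 741 with a median of 362 in early libraries. The same pool of generation 12 held its highest late value, and the next was 1.12. CG1304 fell by 6.02 ± 0.91 (edgeR adjusted p = 0.00903), and its log2 change was -9.33 without generation 12.

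By the test of the difference, both transcripts fell further in C1 than in the mean of the other 5 populations. The log2 change of Ser6 was -1.63 in C2, -1.75 in S2, -2.30 in L2, -0.02 in L1 and 0.43 in S1. That of CG1304 was -1.37 in C2, -0.59 in S2, -1.81 in L2, 0.35 in L1 and 0.35 in S1. The change of Ser6 in C1 minus the mean of the other 5 populations was -6.67 ± 0.68 (edgeR adjusted p = 2.6e-07), and that of CG1304 was -5.47 ± 0.73 (edgeR adjusted p = 2.2e-05). Ser6 averaged 272 in late against 871 in early C2 females, 1109 against 849.7 in S1, 294 against 994 in S2, 634 against 689 in L1, and 105 against 484 in L2. It was therefore still expressed in every other population, and 2 of their 80 libraries, both from late L2 females, were at or under the highest late library of C1. For CG1304 this number was 4 of 80, again all from late L2 females. In C1 the levels were lower in generations 5 to 8 than in the early ones and then dropped between neighbouring generations. Ser6 averaged 375, 264, 263 and 386 over the pools of generations 5, 6, 7 and 8, and 1.09 over those of generation 9. CG1304 averaged 224 at generation 8 and 0 at generation 9.

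**Figure D1:**
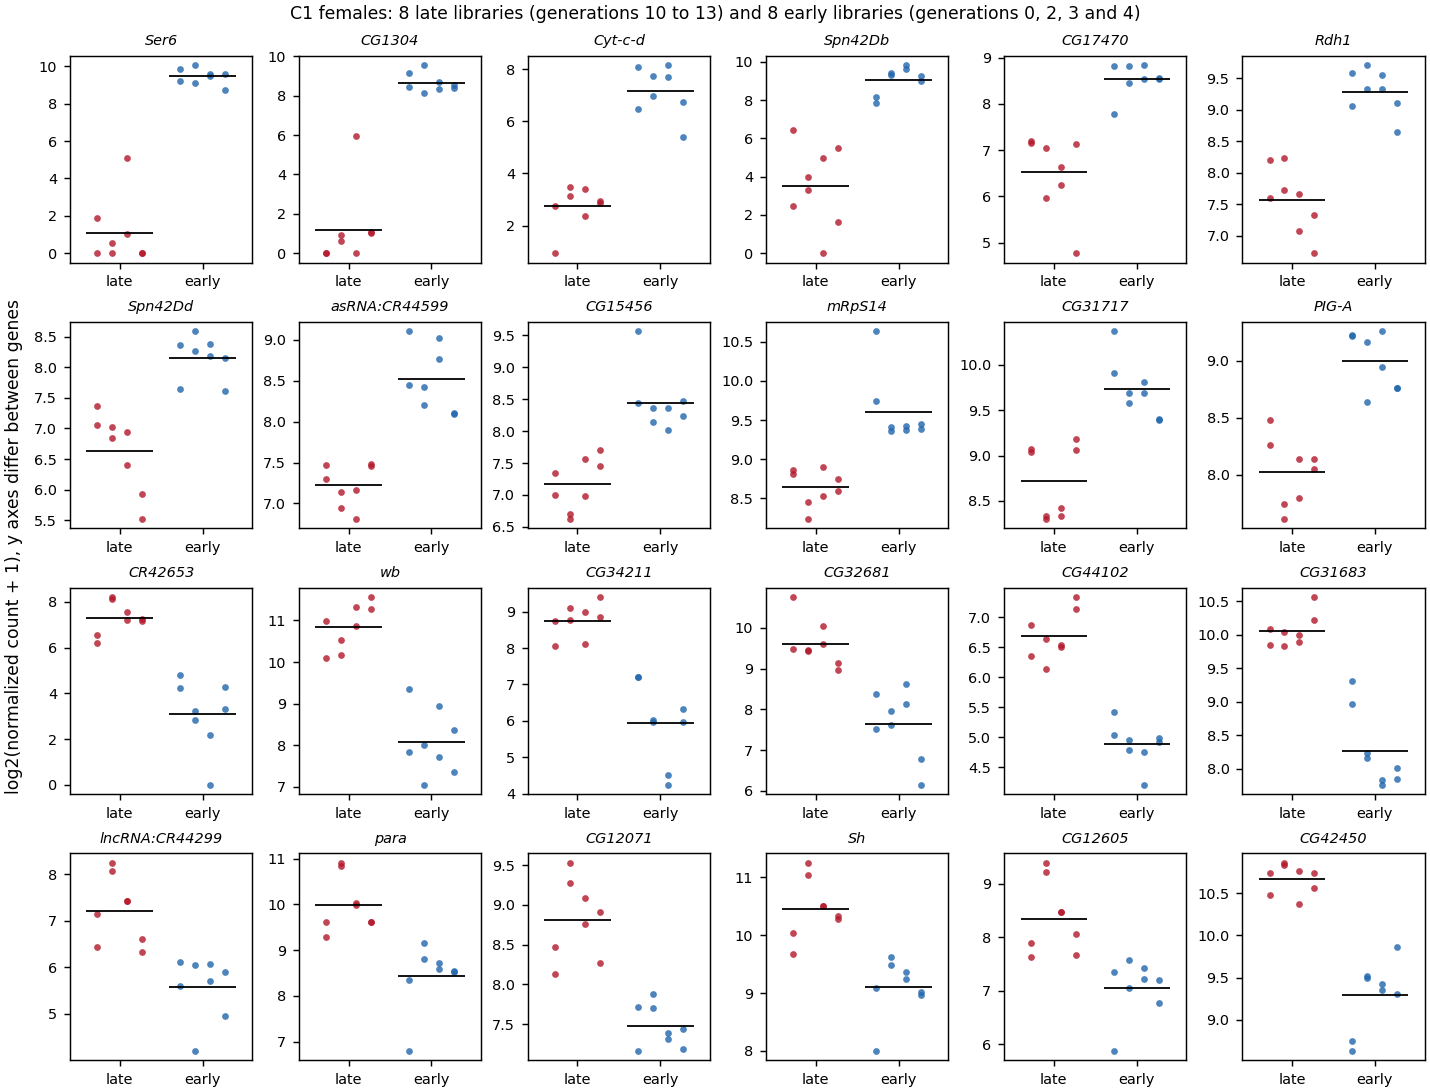
Level of the 24 named genes whose change was not shared, in the 8 late (left, red) and 8 early (right, blue) libraries of C1 females, as log2(normalized count + 1) on the y axis. Each point is a library, points of the same generation stand above each other, the line is the mean of the plotted values, and the y axes differ between genes. The late and early libraries of every gene shown do not overlap, which was a condition for showing it, and Ser6 and CG1304 sit near 0 in all late libraries but 1.

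Cyt-c-d, the cytochrome c form that is used in the male germline during sperm maturation, was present at a low level in early C1 females and fell. It lies on the plus strand of chromosome 2L at 16715891 to 16719635 and overlaps CG31808 there. Its level ran from 0.918 to 10.0 with a median of 6.53 in late libraries, against 40.8 to 281 with a median of 167 in early libraries. The groups did not overlap, which the naming rule required. The log2 change was -4.67 ± 0.41 (edgeR adjusted p = 0.00079), the smallest adjusted p-value of the whole comparison. The change in C1 minus the mean of the other 5 populations was -4.61 ± 1.09 (edgeR adjusted p = 0.00739), and it was not called without generation 11 or without generations 0 and 11 (edgeR adjusted p = 0.0533 and 0.0591). The level of L1 females was low in both periods, with means of 5.96 in late and 19.9 in early libraries, and 22 of the 80 other libraries were at or under the highest late library of C1. In C1 males the gene ran from 9246 to 14342 in late and from 10304 to 12244 in early libraries (log2 change 0.10 ± 0.11, edgeR adjusted p = 0.516).

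LSm7, a subunit of the ring that binds U6 small nuclear RNA, lies within 25 kb of Cyt-c-d and was also among the falls not shared. It met the definition of shared as well, with changes between -0.55 and -0.22 in the other populations. It ran from 1330.3 to 2097 with a median of 1517 in late libraries, against 2583 to 5075 with a median of 2769 in early libraries, and the groups did not overlap. LSm7 fell by 0.90 ± 0.16 (edgeR adjusted p = 0.0157), and its change minus the mean of the other 5 populations was -0.59 ± 0.10 (edgeR adjusted p = 0.00043). BuGZ, in the same window, rose as a shared change by 0.42 ± 0.11 (edgeR adjusted p = 0.0347).

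Serpins of a cluster on chromosome 2R fell as well. Serpins are inhibitors that trap serine proteases, and the Spn42D genes sit side by side. Spn42Db (6879285 to 6880770) ran from 0 to 84.5 with a median of 11.8 in late libraries, against 232 to 899 with a median of 622 in early libraries. It fell by 4.67 ± 0.47 (edgeR adjusted p = 0.00158). Its change minus the mean of the other 5 populations was -2.90 ± 0.87 (edgeR adjusted p = 0.0213), a difference that was not called without C2, S1, generation 4 or generation 11, or without the generation term. The changes of all other populations were negative, and L2 was low in both periods, with means of 1.19 in late and 16.7 in early libraries. S2 averaged 20.1 in late and 179 in early libraries.

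The neighbours of Spn42Db did not move as one. Spn42Dd ran from 44.9 to 163 in late against 195 to 384 in early libraries and fell by 1.45 ± 0.28 (edgeR adjusted p = 0.0237), a call that was lost without generation 3, 11 or 12. Spn42De, named as a neighbour, ran from 9.5 to 20.5 in late against 42.1 to 126 in early libraries and fell by 2.72 ± 0.34 (edgeR adjusted p = 0.00277). Spn42Dc overlaps Spn42Dd and ran from 90.9 to 138 in late against 111 to 195 in early libraries (log2 change -0.29 ± 0.20, edgeR adjusted p = 0.323). Spn42Da, at the end of the cluster, ran from 1922 to 2545 in late against 2333 to 3069 in early libraries (log2 change -0.27 ± 0.11, edgeR adjusted p = 0.103).

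The 8 late and 8 early libraries of the other named falls did not overlap either, which was a condition for naming them. CG17470, a gene of unknown role on 2L, ran from 26.4 to 145 in late against 219.7 to 454 in early libraries and fell by 1.87 ± 0.22 (edgeR adjusted p = 0.00205). Rdh1, a predicted retinol dehydrogenase on 2R, ran from 104 to 299.9 in late against 399 to 835 in early libraries and fell by 1.68 ± 0.24 (edgeR adjusted p = 0.00734). Both were called in each fit that left out 1 generation. The falls of CG15456, mRpS14 (small subunit of the mitochondrial ribosome), CG31717, PIG-A (a catalytic subunit for the first step of glycosylphosphatidylinositol anchor synthesis) and the antisense RNA CR44599, which overlaps loqs, lay between 0.95 and 1.33. The change of each of the other 5 populations was negative in these 5 genes as well. The first pool of generation 0 held the highest early value of CG15456 (756), mRpS14 (1591) and CG31717 (1322), each well above the next early library, and the calls of these 3 genes and of PIG-A were lost without generation 0, 3, 11 or 12.

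The leading rise with a known role was that of wb (wing blister), which encodes a laminin alpha chain of the basement membrane. It lies on the plus strand of 2L at 14263027 to 14328262. Its level ran from 1091 to 3027 with a median of 1957 in late libraries, against 131 to 651 with a median of 240.1 in early libraries. The groups did not overlap, which the naming rule required. The rise was 2.66 ± 0.29 on the log2 scale (edgeR adjusted p = 0.00185), and the change was 2.66 ± 0.41 above the mean of the other 5 populations (edgeR adjusted p = 0.00025). C2, the other control, was the only one of the 5 with a change above 0.2 and averaged 661 in late against 209.5 in early libraries. The other 4 stood between 152 and 186 in late against 171 to 321 in early libraries, and 3 of the 80 libraries outside C1 reached the lowest late library of C1. In C1 the level was already 937 on average at generation 5, 272 at generation 6 and 1159 at generation 7, and it was 2745 at generation 13.

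**Figure D2:**
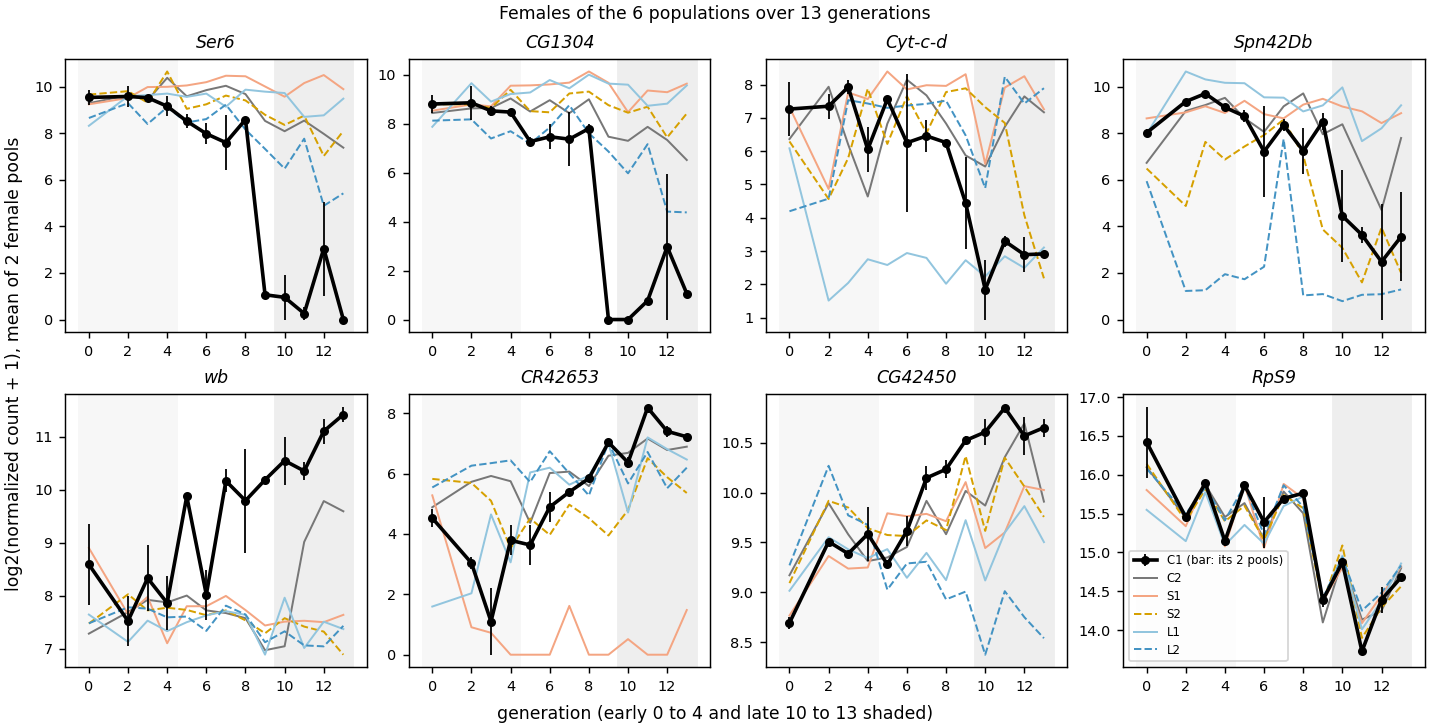
Level of 8 named genes in females over generations 0 and 2 to 13, as the mean over 2 pools of log2(normalized count + 1) on the y axis. C1 is black with a bar that spans its 2 pools, the other populations are coloured lines, and the early and late generations are shaded. Ser6 and CG1304 leave the range of the other populations at generation 9, wb in C1 is above its early level at generation 5 and from generation 7 on, and in C2 from generation 11, and RpS9 moves alike in all 6 populations.

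CR42653, annotated as a pseudogene on 2R (1207416 to 1209312), had the largest rise among the named genes. It ran from 72.1 to 296 with a median of 151 in late libraries, against 0 to 27.3 with a median of 8.59 in early libraries. The rise was 3.95 ± 0.56 (edgeR adjusted p = 0.00711), and the change was 3.80 ± 0.81 above the mean of the other 5 populations (edgeR adjusted p = 0.00549). That mean is pulled down by S1, where the gene averaged 0.578 in late against 10.1 in early libraries, and the difference was 2.65 without S1. L1 averaged 94.2 in late against 11.4 in early libraries, and 27 of the 80 other libraries reached the lowest late library of C1. Both pools of generation 11 in C1, with 283 and 296, were above all 80 of those libraries, whose highest value was 230.2 in a late C2 pool.

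Further rises were seen in genes without a known role here. CG34211 ran from 264 to 675 in late against 18.0 to 147 in early libraries and rose by 2.58 ± 0.45 (edgeR adjusted p = 0.0157), with a positive change in each of the other populations too. CG32681 ran from 501 to 1733 in late libraries, against a median of 223 and a highest value of 393 in early libraries, and rose by 1.87 ± 0.36 (edgeR adjusted p = 0.0236), a call that was lost without generation 0 or 12. CG44102 ran from 69.4 to 160.4 in late against 17.5 to 41.6 in early libraries and rose by 1.86 ± 0.26 (edgeR adjusted p = 0.00686). None of these groups overlapped, which the naming rule required. In the second fit CG44102 changed by 1.84 in C1, 1.20 in L1 and between -0.43 and 0.51 in the rest. It stood 1.62 ± 0.26 above the mean change of the other populations (edgeR adjusted p = 0.0003). CG32681 changed by 1.71 in C1, 1.53 in L1 and 0.43 in C2, against -0.59 in S1, -1.41 in L2 and -3.09 in S2. The difference for CG32681 was not called under 10 of 23 alternatives. CG31683 ran from 914 to 1509.5 in late against 216 to 633 in early libraries and rose by 1.70 ± 0.28 (edgeR adjusted p = 0.0136), next to a change of 1.70 in L1. CG42450 ran from 1328 to 1860.2 in late against 396 to 928 in early libraries and rose by 1.34 ± 0.19 (edgeR adjusted p = 0.00636), while its change in the other populations lay between -1.08 in L2 and 0.73 in C2. The difference for CG42450 was 1.22 ± 0.14 (edgeR adjusted p = 2.1e-06).

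A pair of the named rises are genes for ion channels of neurons. The gene para encodes the voltage-gated sodium channel of fly neurons. It ran from 621 to 1919 with a median of 900.1 in late libraries, against 111 to 573 with a median of 379 in early libraries, and rose by 1.54 ± 0.32 (edgeR adjusted p = 0.0251). Sh (Shaker), a voltage-gated potassium channel known for its effect on sleep in flies, ran from 814 to 2437 with a median of 1365 in late libraries, against 256 to 787 with a median of 573 in early libraries, and rose by 1.37 ± 0.26 (edgeR adjusted p = 0.0236). The groups of both genes did not overlap, which the naming rule required. Their changes were 0.82 ± 0.19 and 0.86 ± 0.16 above the mean of the other 5 populations (edgeR adjusted p = 0.00652 and 0.00174). The change of para was positive in all of the other populations, between 0.15 in L2 and 1.01 in S1. That of Sh lay between -0.10 in L2 and 0.89 in L1. The gene para had no length in the annotation and was not in the fit with offsets that follow transcript length, in which Sh stayed called. Generation 11 held the highest values of both, with a mean of 1869 for para and 2267 for Sh, and generation 9, just before the late period, averaged 1450 for para and 1949 for Sh, against 384 and 631 at generation 8. The rise of para was not called without generation 0, 3, 11 or 12, and that of Sh was not called without generation 0, 3 or 12. Without the generation term neither difference was called, and that of para was also not called without L2, without generation 11 or without generations 0 and 11 (edgeR adjusted p = 0.0571 without L2 and 0.0619 without generation 11). Another channel gene, ppk13 of the pickpocket family, was chosen after its values were seen and went the other way, with means of 2.98 in late and 20.1 in early libraries, which overlapped (log2 change -2.72 ± 0.44, edgeR adjusted p = 0.0126). CG12071, CG12605 and the long noncoding RNA CR44299, which overlaps CG33144, rose by 1.38 ± 0.24, 1.36 ± 0.32 and 1.70 ± 0.34 (edgeR adjusted p = 0.0157, 0.03 and 0.0243).

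Of the 24 named genes whose change was not shared, Ser6, wb, CR42653, CG44102, CG42450 and CG17470 were called in both tests, at a threshold of 0.05, under every alternative that could be fitted for them. CG1304 kept the call of its difference under all of them and lost the late against early call once, without generations 0 and 11 (edgeR adjusted p = 0.0557, against 0.00903 in the full comparison). The others lost a call under 1 or more alternatives, most often when the shared generation term or generation 11 was left out.

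**Figure D3:**
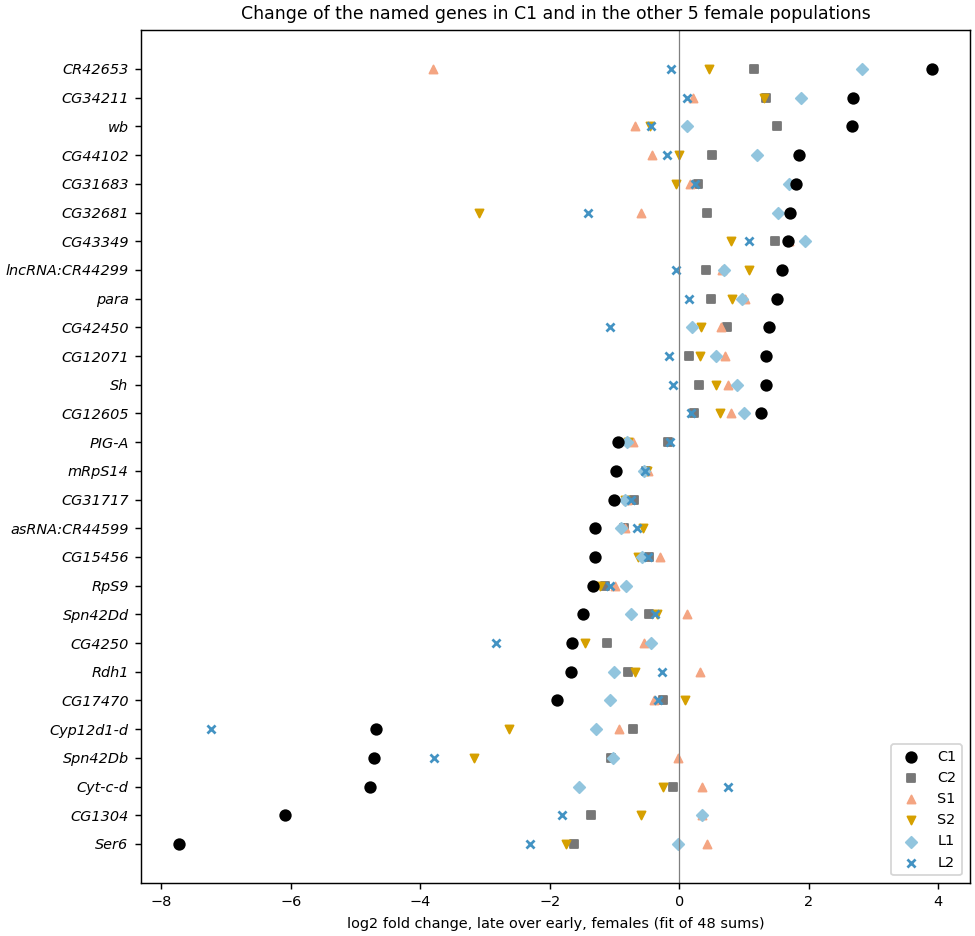
Log2 fold change of late over early libraries for the 28 named genes, in C1 (black circles) and in the other 5 female populations (other symbols), from the fit of the 48 sums. Genes are ordered by the change in C1, and a gene was named as not shared only if C1 lies furthest out. Ser6 at -7.73 and CG1304 at -6.08 stand far from the other populations, whereas the changes of RpS9, mRpS14 and CG31717 were negative in all 6.

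The positions of the changes not shared were described without a test. Of the 377 with coordinates, 36 (9.55%) had a next tested gene, on either side, that was also a change not shared in the same direction, against 4.19% of all 9856 tested genes with coordinates and 4.62% of the 822 other called genes. The count includes Ser6 with CG1304 and the Spn42D genes. By chromosome, and beside the 3.81% of all tested genes, changes not shared were 61 rises and 32 falls among 1624 tested genes on X, 41 and 28 among 1785 on 2L, 34 and 40 among 2001 on 2R, 44 and 13 among 1883 on 3L, and 55 and 28 among 2465 on 3R.

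The leading shared rises were CG34211, para, CG12605 and CG43349, and the leading shared falls were Spn42Db, Cyp12d1-d, CG4250 and RpS9. Of these, CG34211, para, CG12605 and Spn42Db met both definitions, as did the named falls CG15456, mRpS14, CG31717, PIG-A and CR44599. CG43349 ran from 1558 to 6398 in late against 525 to 1372 in early C1 libraries and rose by 1.80 ± 0.34 (edgeR adjusted p = 0.021), and its change in the other populations lay between 0.80 and 1.94. RpS9, a protein of the small ribosomal subunit, ran from 13158 to 30568 in late against 34806 to 120415 in early libraries and fell by 1.35 ± 0.29 (edgeR adjusted p = 0.0271). The change of RpS9 in the other populations was between -1.22 and -0.83, and its difference from C1 was not called (-0.27 ± 0.11, edgeR adjusted p = 0.0732). Its level in the first pool of generation 0 was 120415, and the next early library held 63897.

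A pair of shared falls was larger still in L2 by value. Cyp12d1-d, a cytochrome P450 linked to insecticide resistance, ran from 0 to 52.2 in late against 94.5 to 486 in early C1 libraries and fell by 4.45 ± 0.60 (edgeR adjusted p = 0.00554). The change was -7.23 in L2, and the difference of C1 from the mean of the others was called without L2 only among the fits that left out a population (-3.28, against -2.12 with all). Its near-identical copy Cyp12d1-p ran from 166 to 407 in late against 208 to 611 in early libraries (log2 change -0.21 ± 0.21, edgeR adjusted p = 0.497). Only uniquely mapped reads were counted, so the split of reads between the copies is uncertain. CG4250 ran from 81.9 to 253 in late against 258 to 622 in early libraries and fell by 1.65 ± 0.29 (edgeR adjusted p = 0.0157), beside a change of -2.83 in L2.

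The gene lists are described by their counts, which stand beside 8.06% rises, 4.05% falls and 12.1% calls in all over the 10008 genes tested. Of 82 tested genes for cytoplasmic ribosomal proteins, 22 fell, none rose and 60 were not called, with a median log2 change of -0.37 against 0.02 over all genes tested. All 22 were shared with the other populations, and none was a change not shared. RpS3A, for example, ran from 35778 to 77462 in late against 81874 to 192047 in early libraries and fell by 1.16 ± 0.26 (edgeR adjusted p = 0.0282). The count was 18 without the first pool of generation 0, 0 without generation 0 or generation 3, 1 without generation 11 or generation 12, 31 without generation 4 and 2 with offsets that follow transcript length. Of 72 tested genes for the mitochondrial ribosome, 6 fell, 1 rose and 65 were not called, with a median of -0.29. Of the falls, 5 (mRpS14, mRpL49, mRpL17, mRpL27 and mRpL45) were further from 0 in C1 than elsewhere. All 6 falls met the definition of shared. Of 31 proteasome genes, Prosalpha5, Prosbeta1 and Prosalpha4 fell and 28 were not called, with a median of -0.24. These 3 falls met both definitions, not shared and shared. In the mitochondrial and proteasome lists no fall was called without generation 0, 3, 11 or 12, and with length offsets 1 fall was called in the first of them and 0 in the proteasome.

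Genes of insulin signalling, which couples feeding to growth and metabolism, were called in both directions. Of 13 tested genes, 6 rose, 2 fell and 5 were not called, beside 12.1% called over all genes, with a median log2 change of 0.41. InR, the insulin receptor, ran from 2278 to 4349 in late against 1198 to 1995 in early libraries and rose by 0.88 ± 0.15 (edgeR adjusted p = 0.0136), and it was called without each generation in turn. The rises of chico (the insulin receptor substrate), foxo and Thor (a translation repressor that foxo activates), Akt and ImpL2 (a secreted binder of insulin-like peptides) lay between 0.41 and 0.78. Ilp7 and Ilp8, which encode insulin-like or relaxin-like peptides, fell by 1.04 ± 0.21 and 0.63 ± 0.11 (edgeR adjusted p = 0.0244 and 0.0159). All other populations had a positive change of InR, between 0.45 and 0.75, and no gene of this list was a change not shared. The list held 1 rise and no fall without generation 3, without generations 0 and 11 and with length offsets, and 1 rise and 1 fall without generation 0, 11 or 12. InR had no length in the annotation and was not in the fit with length offsets, so the 1 rise there was another gene. Of 19 genes of fat storage, bmm (the Brummer lipase of lipid droplets), Lpin and Lsd-2 rose and 16 were not called, and bmm rose by 0.96 ± 0.18 (edgeR adjusted p = 0.0193). These 3 rises stand beside 8.06% over all genes, and they were 0 without generation 0 or 3 and 1 without generation 11, without generation 12 or with length offsets.

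Called genes of defence and digestion were falls, of which the share over all genes was 4.05%. Of 30 antimicrobial and related peptides, Drs, IM33, Dso2, BomBc3, BomS2 and BomS4 fell and 24 were not called, with a median of -0.42. Drs (drosomycin, an antifungal peptide) ran from 2313 to 4850.3 in late against 4056 to 9108 in early libraries and fell by 0.91 ± 0.21 (edgeR adjusted p = 0.03). No member was called without generation 0, 3, 11 or 12 or with length offsets, and 1 was called without the first pool of generation 0. Of 32 gut serine proteases, 6 fell, none rose and 26 were not called, with a median of -0.55. Beside Ser6 and CG1304 these were Jon99Ci, Jon65Ai, Ser12 and Jon44E, and the count was 4 without the first pool of generation 0, 2 without generation 3, 3 without generation 0 or 11 and 3 with length offsets. No gene for peptidoglycan recognition, lysozymes, Turandot proteins, maltases and amylases, yolk proteins or eggshell was called.

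Detoxification genes were called in both directions. Of 31 glutathione S-transferases 5 fell, 2 rose and 24 were not called, and without generation 3 or 12 the calls were 1 and 0. Of these genes, GstE11, GstT1, GstT3 and GstO1 were falls not shared, and GstT1, GstT3 and GstO1 met the definition of shared as well. GstE11 ran from 374 to 665 in late against 736 to 1631 in early libraries and fell by 0.93 ± 0.17 (edgeR adjusted p = 0.0179). Of 74 cytochrome P450 genes 4 fell, 1 rose and 69 were not called, a smaller share than the 12.1% called over all genes. The neighbours Cyp9b1 and Cyp9b2 moved in opposite directions. Cyp9b1 ran from 88.7 to 196 in late against 109.8 to 398 in early libraries and fell by 1.09 ± 0.22 (edgeR adjusted p = 0.0245), whereas Cyp9b2 ran from 2071 to 5318 in late against 1059 to 2409 in early libraries and rose by 1.20 ± 0.21 (edgeR adjusted p = 0.0157).

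Of the remaining lists, 3 of 14 clock genes rose (cwo, sgg and Pdfr) and 2 of 14 heat shock genes rose (stv and Hsp70Aa). Of 23 sarcomere genes 4 rose and TpnC25D fell. In the cuticle list 3 of 29 genes rose, Cpr72Ec, TwdlC and Cpn, of which Cpn does not encode a cuticle protein. TwdlC averaged 8.47 in late and 1.16 in early libraries. These counts stand beside 8.06% rises over all genes. No clock or sarcomere gene was called without generation 0, 3, 11 or 12, and with length offsets no clock gene and 1 sarcomere gene was called. Heat shock rises numbered 0 without generation 3 and 4 without generation 0, and cuticle rises 1 without generation 0, 3, 11 or 12. Pdfr, the receptor for the clock neuropeptide PDF, ran from 638 to 1449 in late against 296 to 611 in early libraries and rose by 0.98 ± 0.23 (edgeR adjusted p = 0.03). Its change met both definitions, not shared and shared. Of 17 tested testis and sperm genes, bol rose and Mst87F fell, and no gene of this list was called without generation 0, 3, 11 or 12 or with length offsets. Levels of bol in females reached 1316 in late and 611 in early libraries, and Mst87F stayed between 1.06 and 6.73 in late and between 2.64 and 9.72 in early libraries.

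**Figure D4:**
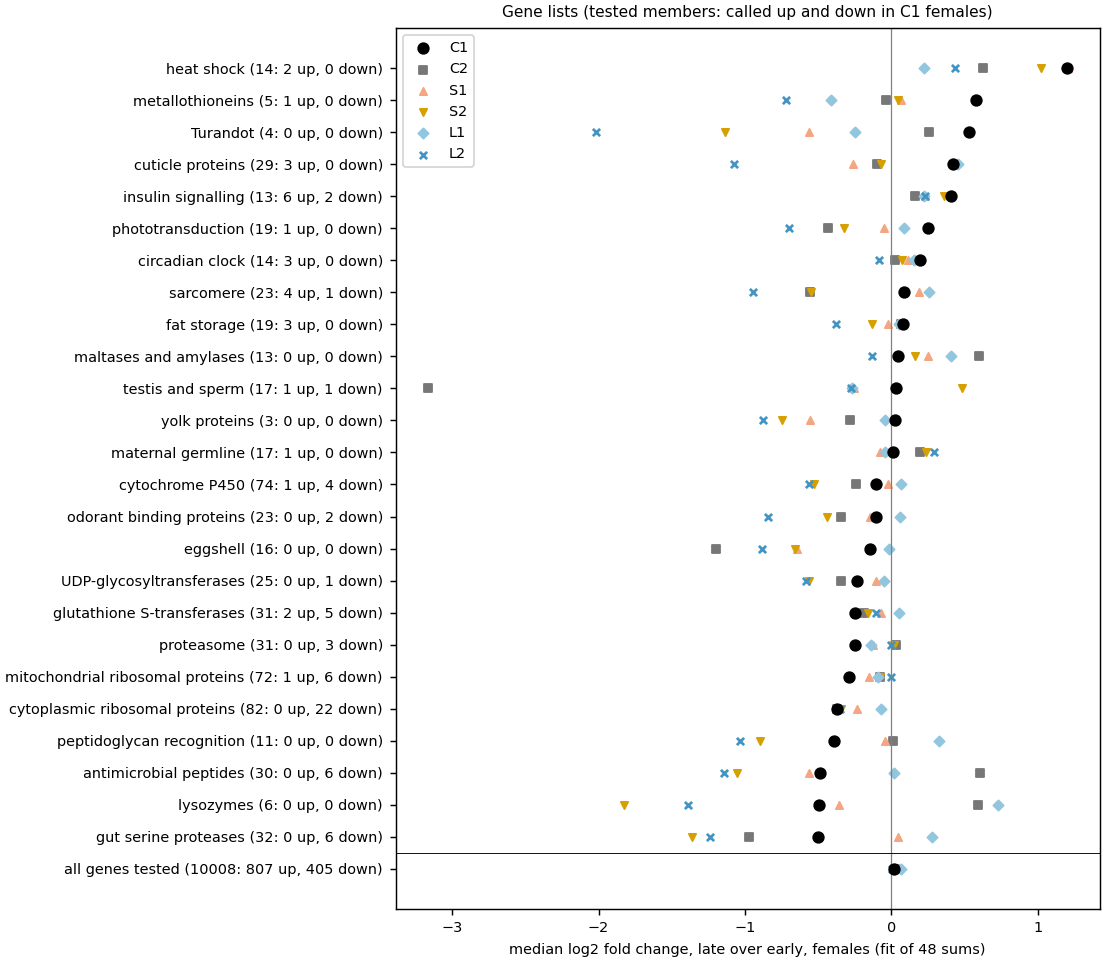
Median log2 fold change of late over early libraries for each gene list with at least 3 tested genes, in C1 (black circles) and in the other 5 female populations (other symbols), from the fit of the 48 sums, with all tested genes at the bottom. The numbers after each name give the tested genes and how many were called up and down in C1 females. Heat shock genes stand highest and gut serine proteases lowest in C1, and for most lists the other populations lie on both sides of C1.

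The broad shift of C1 females followed transcript length. Among the 9856 tested genes with a length in the annotation (98.5%), the median log2 change of C1 was -0.17 in the shortest quintile (transcripts up to 1107 bases), -0.12, -0.04 and 0.10 in the quintiles between, and 0.29 in the longest (from 3832 bases). Across genes, the change of C1 had a Spearman correlation of 0.41 with length, and that of the other populations 0.22 to 0.28. Of the 239 rises not shared, 149 were in the longest quintile, and of the 142 falls not shared, 108 were in the 2 shortest. Within libraries, the deviation from the median profile had a correlation with length between 0.15 and 0.39 in the 8 late libraries and between -0.76 and 0.05 in the 8 early ones, the lowest being the first pool of generation 0. When offsets that follow length within each sum were used, the number of called genes was 215, with 195 of them from the 1212, and 73 changes were not shared. Ser6, CG1304, Cyt-c-d, Spn42Db, wb and CR42653 stayed called, while CG32681, CG12605, Spn42Dd, CG31717 and RpS9 did not. Why length moved with the generations was not tested.

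**Figure D5:**
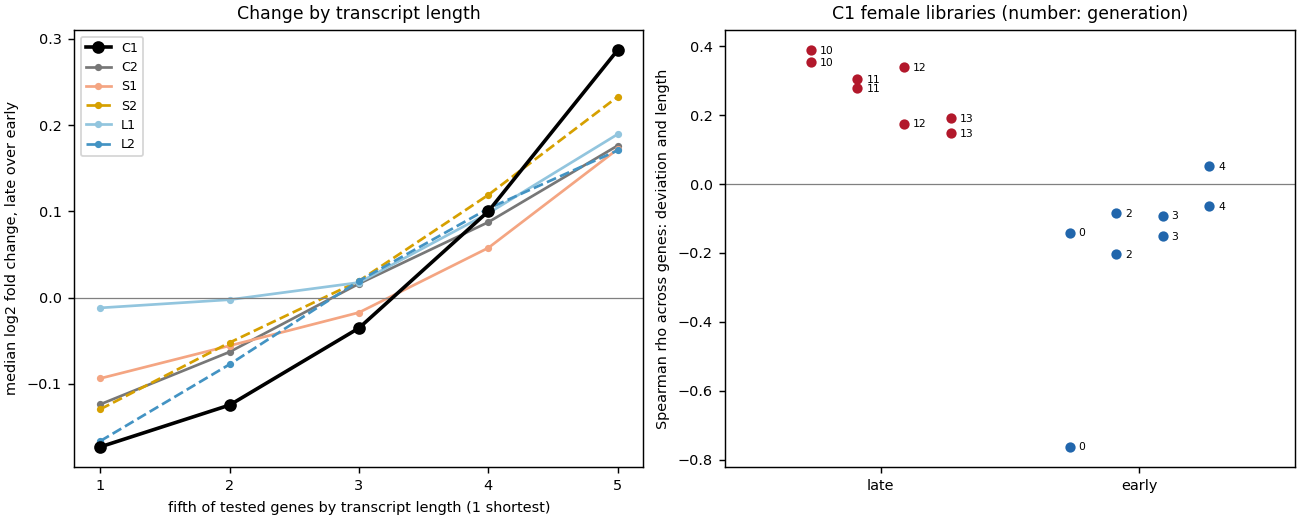
Left, the median log2 fold change of late over early libraries (y axis) in quintiles of tested genes by transcript length (x axis, 1 shortest), for C1 (black) and the other 5 female populations. Right, the Spearman correlation across genes between a library's deviation from the median profile and transcript length, for the late (red) and early (blue) C1 female libraries, each point labelled with its generation. The slope is steepest in C1, all late libraries lie above all early ones, and the first pool of generation 0 lies at -0.76.

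The males of C1 came from the same bottles and generations and were fitted alone, as other flies of the same population. Of 13318 genes tested in males, 1628 were called (12.2%), and this count lay between 37 without generation 11 and 2705 without generation 10. Of the 377 changes not shared in females that were tested in males, 367 had the same sign there, 206 were called with the same sign and 1 with the opposite sign. In males Ser6 ran from 0 to 4.52 in late against 1066 to 3274 in early libraries (log2 change -9.79 ± 0.47, edgeR adjusted p = 9.6e-06), and CG1304 ran from 0 to 2.41 in late against 379.8 to 1352 in early libraries (log2 change -10.03 ± 0.46, edgeR adjusted p = 9.6e-06). No late male library held a value like that of the second female pool of generation 12. The gene wb ran from 2245 to 7426 in late against 591 to 2061 in early male libraries (rise of 1.70 ± 0.35, edgeR adjusted p = 0.0262), with no overlap. CR42653 ran from 143 to 411 in late against 1.99 to 57.3 in early male libraries (rise of 3.36 ± 0.61, edgeR adjusted p = 0.0213). CG44102, CG42450 and CG17470 were not called in males, with log2 changes of 0.36 ± 0.15, 0.36 ± 0.21 and -0.44 ± 0.16. Sexes were not compared by a test.

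Of the 41 genes called without each generation in turn, some lie outside the naming rule and are given here because their values were seen. EcR, the receptor for the steroid ecdysone, ran from 4541 to 6004 in late against 2299.6 to 4015 in early libraries and rose by 0.77 ± 0.09 (edgeR adjusted p = 0.00205), and the other populations changed by 0.27 to 0.77. Pgk, the glycolytic enzyme phosphoglycerate kinase, ran from 5301 to 9265 in late against 12629 to 19408 in early libraries and fell by 0.91 ± 0.16 (edgeR adjusted p = 0.0157). The change of Pgk in the other populations lay between -0.67 and -0.54, and the difference was -0.32 ± 0.06 (edgeR adjusted p = 0.00287). Rab14, a small GTPase of endosome traffic, ran from 5175 to 8286 in late against 3332 to 4258 in early libraries and rose by 0.86 ± 0.13 (edgeR adjusted p = 0.00772), and the difference was 0.55 ± 0.08 (edgeR adjusted p = 0.00013). The late and early libraries of these 3 genes did not overlap. Among all genes tested, 598 (5.98%) had late and early libraries without overlap, and 456 of the 1212 called genes were among them.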

How the data were processed

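RNA-seq of pooled whole flies was analysed. The submitters' processing notes name CASAVA 1.8.2, FastQC, STAR, HTSeq and DESeq. The deposited raw counts are uniquely mapped reads per gene, aligned to a release 6 annotation. In the second deposited table the authors give a normalized signal, which equals the raw count over 1 factor per library (0.793 to 2.31 in C1 females, checked across genes). The strand setting of the counting is not given in the sources used here. Reads of overlapping or antisense genes may therefore not be told apart. Results for some genes are not reported here. Symbols and coordinates came from BDGP6.54, which lacks some identifiers, para among them.

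Genes entered when their normalized count exceeded the study's cutoff for the sex in at least 1 library. Counts of the 2 pools of a generation were summed, with the sum of their size factors as offset, since pools of a generation share bottle and day. The spread between pools exceeded sampling noise (chi-square over its degrees of freedom 13.0 or more). Tests used edgeR 4.0.16 in R 4.3.3 and were two-sided. The first fit had late against early sums of C1. The second had the 48 sums of 6 female populations, with population, population by period and generation within period. Standard errors follow from the F-statistics. The study's own model was a trend over generations across selection schemes, without this contrast. The code was checked on simulated counts.

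Members, gene lists and the rule for named genes were chosen with earlier results of these data known. Named are the 12 largest rises and 12 largest falls among changes not shared with no overlap between the 8 late and 8 early libraries and a mean above the female cutoff in either period, the 4 largest each way among changes shared, called members of the lists and neighbours of named genes. The generations are the replicates of 1 population, so the p-values measure the spread between its generations. Alternatives were another normalization, DESeq2 1.42.0, other filters, libraries as samples with and without a replicate block, no generation term, leaving out each population or generation, a slope over generations, a stricter threshold and, chosen after seeing the data, length offsets and leaving out the first pool of generation 0 or generations 0 and 11.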

Additional observations from a re-analysis of the deposited data

Results flagged for a closer look

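A library stood far from the other 7 of its period in 9 of the 56 groups checked (28 named genes in 2 periods), by Dixon's criterion. Chance alone meets it in about 1 of 20 groups of independent, normally distributed values. The groups here reuse the same 16 libraries, with 2 pools per generation, so 9 of 56 cannot be set against that share. In the late libraries, the second pool of generation 12 held 32.6 for Ser6 and 60.4 for CG1304, where the next highest libraries held 2.75 and 1.12. The first pool of generation 10 held 1733 for CG32681, against 1059 in the next library, and the first pool of generation 13 held 1509.5 for CG31683, against 1190.5. In the early libraries, the first pool of generation 0 was highest for CG15456 (756, against 355), mRpS14 (1591, against 858), CG31717 (1322, against 963) and RpS9 (120415, against 63897). The second pool of generation 0 was lowest for CG17470 (219.7, against 351). The same first pool of generation 0 held the highest sum of ribosomal protein genes of the 16 libraries, and its part in these values was not tested.

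The change in C1 females differed from the mean change of the other 5 female populations in each of the 24 genes named for it, which the naming rule fixed. On the log2 scale, C1 minus the others with its SE was CR42653 3.80 ± 0.81, wb 2.66 ± 0.41, CG32681 2.34 ± 0.76, CG34211 1.71 ± 0.44, CG44102 1.62 ± 0.26, CG31683 1.33 ± 0.37, CG42450 1.22 ± 0.14, CR44299 1.03 ± 0.33, CG12071 1.03 ± 0.18, Sh 0.86 ± 0.16, para 0.82 ± 0.19 and CG12605 0.70 ± 0.18 among the rises. Their edgeR adjusted p-values lay between 2.1e-06 for CG42450 and 0.0304 for CG32681. Among the falls it was Ser6 -6.67 ± 0.68, CG1304 -5.47 ± 0.73, Cyt-c-d -4.61 ± 1.09, Spn42Db -2.90 ± 0.87, CG17470 -1.50 ± 0.30, Rdh1 -1.19 ± 0.33, Spn42Dd -1.12 ± 0.32, CG15456 -0.81 ± 0.16, antisense RNA CR44599 -0.54 ± 0.13, mRpS14 -0.47 ± 0.10, PIG-A -0.42 ± 0.14 and CG31717 -0.23 ± 0.07. Their edgeR adjusted p-values lay between 2.6e-07 for Ser6 and 0.0388 for PIG-A.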

How the results depend on the processing

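The counts moved with the generations and with the unit of replication. Called late against early in C1 females were 1212 genes, and 49 to 1872 when 1 generation was left out (the lowest without generation 3, the highest without generation 13). The difference from the other populations was called for 2124 genes, and for 212 (without generation 11) to 2476 (without generation 13). Changes not shared numbered 381, and 22 to 694. Changes shared numbered 876, and 20 (without generation 3) to 1307. The male count was 1628, and 37 to 2705. With DESeq2, 2208 genes were called late against early, 774 changes were not shared, 1583 were shared and 3082 genes were called in males. A slope over 13 generations was called for 2648 genes. Without the shared generation term the difference was called for 24 genes and 16 changes were not shared. Without C2, L1 or L2 the difference was called for 1093, 3342 or 187 genes, and without L2 there were 98 changes not shared. At an adjusted p-value under 0.001, edgeR called 1 gene late against early, 19 for the difference and 2 in males, with 0 changes not shared and 0 shared. At an unadjusted p-value under 0.001, 330 genes passed late against early. The cause of these movements was not tested.

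With libraries as samples, which counts pools of 1 bottle as independent, 3692 genes were called late against early, 3950 for the difference and 5503 in males, with 1509 changes not shared and 2452 shared. With the pool number as a replicate block these were 3819, 3968, 1511 and 2545 in females. The labels give no meaning to the number, and the deviations of pool 1 correlated with 0.51 between late and early libraries across genes.

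Of the alternatives chosen after seeing the data, offsets that follow transcript length gave 215 genes called late against early, 73 changes not shared and 143 shared. Without the first C1 pool of generation 0, 1198 genes were called for the difference and 231 changes were not shared. Without generations 0 and 11, 47 genes were called late against early and 95 for the difference, with 12 changes not shared and 19 shared. Of 1140 values of the 28 named genes under all alternatives, none turned its direction, 985 stayed on their side of the threshold, 151 lost the call and 4 gained it. The naming rule required late and early libraries without overlap. Leaving out a generation or a pool could therefore not turn a late against early change. A gene changed 1.5-fold was called in 12 of 50 simulated cases of the late against early test and a gene changed 4-fold in 50 of 50, so small changes are often missed.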
